A study of Sus scrofa with 4 samples.

Results

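Expression of 10 genes of fatty acid synthesis and desaturation was examined in pig muscle. The genes, SREBF1, ACLY, ACACA, FASN, ME1, ELOVL6, SCD, FADS1, FADS2 and DGAT2, were chosen by name for their role in the pathway and read by symbol from a table of 29692 gene symbols. The choice was made with earlier results of these data known. All 10 were in the table, each with 1 row. The samples were muscle biopsies of Hampshire and Mali pigs (Sus scrofa), 2 libraries per breed, and the study compared the breeds because they differ in muscularity. The labels name no treatment. Neither the muscle, the age and sex of the pigs nor the number of animals behind the libraries is stated in the labels, and the spread that p-values measure here may be technical. Values are FPKM, fragments divided by transcript length and by the library total, so that levels of different genes can be compared per length. Paired values are given in the order replicate 1, replicate 2.

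Animals make fatty acids from citrate in a short chain of enzymes. ATP citrate lyase (ACLY) cuts citrate to acetyl-CoA, acetyl-CoA carboxylase alpha (ACACA) turns this into malonyl-CoA, and fatty acid synthase (FASN) builds palmitate, with reducing power supplied in part by malic enzyme (ME1). ELOVL6 lengthens palmitate, stearoyl-CoA desaturase (SCD) adds a double bond to saturated chains, FADS1 and FADS2 desaturate polyunsaturated chains, and DGAT2 joins the products into triglyceride. The transcription factor SREBF1 activates most of these genes. In pigs adipose tissue is the main site of this synthesis, and the fat within a muscle is stored both in adipocytes between the fibres and in droplets inside them.

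The skeletal muscle genes ACTA1, CKM, TTN and MYLPF summed to 88705 and 99711 FPKM (Hampshire) and 46565 and 96583 FPKM (Mali). The tissue label was therefore met in every library. Mali replicate 2 was the highest library for 8 of the 11 muscle markers. The FPKM of all genes summed to between 516463 (Mali replicate 1) and 988614 (Hampshire replicate 1), and mitochondrial genes held 42.5% of that sum in Hampshire replicate 1 against 17.1% to 21.3% in the other libraries. The number of reads per library is unknown. Between libraries of the same replicate number, low FPKM values shared 1 sharp ratio, with a log2 value of 0.29 for Hampshire over Mali in replicates 1 and -0.09 in replicates 2. The narrow bin at this ratio held 13.0% and 6.61% of rows with low values, whereas the fullest bin of the other 4 combinations held at most 2.24%. Differences are therefore given for each replicate number as well as over all libraries.

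Most of the pathway was expressed at a low level. The mean over the 4 libraries was highest for ME1 at 11.6 FPKM and SREBF1 at 11.1 FPKM, and these 2 genes alone lay above the median tested gene at 5.78 FPKM. SCD followed at 4.82, FADS2 at 3.67, DGAT2 at 2.41, ACLY at 2.12 and FASN at 1.32 FPKM. ELOVL6, FADS1 and ACACA averaged 0.880, 0.781 and 0.745 FPKM. In this order the ranges over libraries overlapped for all 9 pairs of neighbours, so no gene was set apart from the next one. The means of SREBF1 and SCD were raised by Mali replicate 2. In the other libraries SREBF1 was between 3.62 and 4.89 FPKM, below the median tested gene of each. SCD was between 0.224 and 2.43 FPKM there. A test needed at least 1 FPKM in at least 2 libraries, which 10075 genes reached. Of the 10 pathway genes 8 reached it, while ACACA reached 1 FPKM in 0 libraries and ELOVL6 in 1 library. FADS1 was the 1 gene that passed through the Hampshire libraries alone, so its tested value had to lie on the Hampshire side.

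None of the 8 tested genes passed the test of the breed difference in limma, a linear model with shared variance estimates fitted over all tested genes. At adjusted p under 0.05, 0 of the 8 were called, where 0 of the 10075 tested genes (0%) were. At unadjusted p under 0.05, 0 of the 8 were counted against 7.09% of all tested genes. With the replicate number as a block in the fit, 0 of the 8 were called against 2.59% of all tested genes. Over all 10 genes the median difference in log2(FPKM + 1), Hampshire minus Mali, was 0.063, with 5 genes positive and 5 negative, beside a median of -0.12 and 39.5% positive over all tested genes. The direction was the same within both replicate numbers for 5 of the 10 genes, near the 55.8% of all tested genes. The genes had their highest values in different libraries: 4 in Hampshire replicate 2, 3 in Mali replicate 1, 2 in Mali replicate 2 and 1 in Hampshire replicate 1. Of all tested genes 20.4%, 28.7%, 33.3% and 17.5% were highest in these libraries, in the same order.

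**Figure D1:**
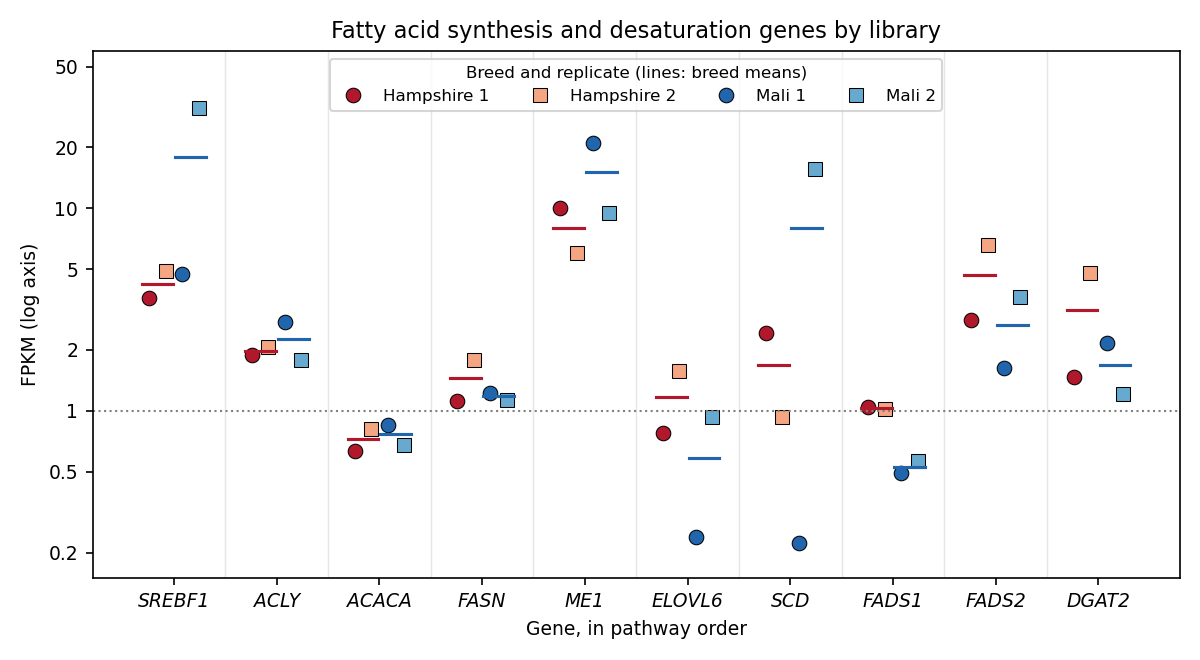
FPKM (log axis) of the 10 genes in pathway order, with 1 point per library and a line at each breed mean; the dotted line marks 1 FPKM. SREBF1 and SCD stand at 31.2 and 15.7 FPKM in Mali replicate 2 alone, FASN and ACACA vary little, and FADS1 is the gene whose breeds do not overlap.

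SREBF1, the regulator, was at 3.62 and 4.89 FPKM (Hampshire) and 4.72 and 31.2 FPKM (Mali). Mali replicate 2 stood 6.39-fold above the next highest library, while the other 3 libraries lay close together. The breed means were 4.25 ± 0.894 and 18.0 ± 18.7 FPKM (SD, n = 2 each). The log2 difference was -1.38 with a standard error of 0.75 and a 95% interval from -3.14 to 0.38 (limma, adjusted p = 0.825). It was -0.31 within replicates 1 and -2.45 within replicates 2, and -0.13 without Mali replicate 2. In the authors' deposited table the log2 fold change of SREBF1 was -2.08 with p = 0.0014 and q = 0.132. SREBF1 lies on chromosome 12 (60733967 to 60750951, plus strand, Sscrofa11.1).

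SCD, the desaturase that makes oleic acid, was at 2.43 and 0.932 FPKM (Hampshire) and 0.224 and 15.7 FPKM (Mali). The Mali libraries held both the lowest and the highest value, which differed 70.1-fold, the widest range of the 10 genes. The log2 difference was -0.81 with a standard error of 1.06 and a 95% interval from -3.30 to 1.67 (limma, adjusted p = 0.946). Its sign turned with the library pair, from 1.49 within replicates 1 to -3.11 within replicates 2. Without Mali replicate 2 it was 1.07. In the authors' deposited table SCD had a log2 fold change of -2.25 with p = 0.00265 and q = 0.195. None of the 10 pathway genes had q under 0.05 in the authors' deposited table, where 0.215% of rows did. SCD lies on chromosome 14 (111461560 to 111478033, plus strand).

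Mali replicate 2 was thus the library with the high regulator and the high desaturase, but not with high synthase. A total of 16 tested genes (0.159%) stood at least 5-fold above every other library in Mali replicate 2, a size chosen after the values were seen, and SREBF1 and SCD were among them. The other named genes of the 16 were ADPRHL1, SLC7A8, TBKBP1, TMEM220 and TMEM51, and the rest, apart from the next 3, had LOC symbols. ADPRHL1 was at 13.5 and 32.8 FPKM (Hampshire) and 8.11 and 166 FPKM (Mali). Also among the 16 were KRT10, a keratin of the upper epidermis, and the epithelial genes DEFB1 and MT4. Further skin genes were followed in the list of skin and sebaceous markers. KRT5 was listed at 0 in 3 libraries and at 1.19 FPKM in Mali replicate 2. KRT1 was at 2.71 FPKM there and at most 0.0159 elsewhere, and KRT10 at 15.96 FPKM there and between 0.985 and 1.06 elsewhere. Of the 9 skin and sebaceous markers in the table, 5 were highest in Mali replicate 2 and 2, KRT79 and AWAT1, were listed at 0 in all libraries. TP63, a further marker of the list, did not follow them. It was at 3.33 and 6.94 FPKM (Hampshire) and 8.06 and 6.86 FPKM (Mali), highest in Mali replicate 1. The summed level of the 9 was 4.32 and 8.07 FPKM in Hampshire and 9.10 and 27.3 FPKM in Mali. Outside Mali replicate 2 most of this sum was TP63. The sebaceous wax synthase AWAT2 was listed at 0 in Mali replicate 2. The part of skin transcripts in the SREBF1 and SCD values was not tested.

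Of the supply enzymes, ACLY was at 1.88 and 2.07 FPKM (Hampshire) and 2.75 and 1.79 FPKM (Mali). The breeds overlapped, with the highest and the lowest value both in Mali. The log2 difference was -0.12 with a standard error of 0.32 and a 95% interval from -0.87 to 0.63 (limma, adjusted p = 0.974). ME1 was at 10.05 and 6.003 FPKM (Hampshire) and 20.9 and 9.48 FPKM (Mali). Mali replicate 1 stood 2.08-fold above the next library, and Mali replicate 2 lay between the Hampshire libraries. Its log2 difference was -0.79 with a standard error of 0.49 and a 95% interval from -1.94 to 0.37 (limma, adjusted p = 0.866), -0.99 within replicates 1 and -0.58 within replicates 2. Without Mali replicate 1 it was -0.25. ACLY lies on chromosome 12 (20796678 to 20841301, plus strand) and ME1 on chromosome 1 (82799878 to 82989895, plus strand).

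ACACA and FASN, the core of the synthesis, were low and even. FASN was at 1.13 and 1.79 FPKM (Hampshire) and 1.23 and 1.13 FPKM (Mali). Hampshire replicate 2 was the highest library and the other 3 were alike. The breed means were 1.46 ± 0.471 and 1.18 ± 0.0681 FPKM (SD, n = 2 each), with a log2 difference of 0.16, a standard error of 0.30 and a 95% interval from -0.54 to 0.86 (limma, adjusted p = 0.969). ACACA was at 0.631 and 0.819 FPKM (Hampshire) and 0.850 and 0.680 FPKM (Mali), and was not tested. Its breeds overlapped, and its highest library stood only 1.35-fold above its lowest, the narrowest range of the 10 genes. FASN spanned 1.59-fold and ACLY 1.54-fold. FASN (922405 to 937560, plus strand) and ACACA (38580916 to 38875067, minus strand) lie on chromosome 12, which holds 4 of the 10 genes in all.

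ELOVL6, the elongase acting on palmitate, was at 0.774 and 1.57 FPKM (Hampshire) and 0.240 and 0.932 FPKM (Mali). Hampshire lay above Mali within each replicate number, but Mali replicate 2 was above Hampshire replicate 1. The log2 difference, not tested, was 0.47, with 0.52 within replicates 1 and 0.41 within replicates 2, and was 0.15 without Mali replicate 1. ELOVL6 lies on chromosome 8 (112038670 to 112190079, plus strand).

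The desaturases of polyunsaturated chains, FADS1 (delta-5) and FADS2 (delta-6), lay on the Hampshire side in both replicate numbers. FADS1 was at 1.05 and 1.02 FPKM (Hampshire) and 0.492 and 0.565 FPKM (Mali). Both Hampshire libraries were above both Mali libraries, and FADS1 was the 1 gene of the 10 without overlap. Among all tested genes 13.0% were separated in this direction and 23.6% in the other. FADS1 passed the filter through the Hampshire libraries alone, which fixed its separation beforehand. The separation is therefore not read as a breed difference. The log2 difference was 0.41 with a standard error of 0.27 and a 95% interval from -0.21 to 1.04 (limma, adjusted p = 0.877), and 0.46 and 0.37 within replicates 1 and 2. On the ratio of breed means, without the added 1, the log2 value was 0.97. FADS2 was at 2.83 and 6.59 FPKM (Hampshire) and 1.62 and 3.66 FPKM (Mali). Each replicate 2 was above its replicate 1, and the breeds overlapped. Its log2 difference was 0.62 with a standard error of 0.46 and a 95% interval from -0.46 to 1.71 (limma, adjusted p = 0.882), 0.54 and 0.70 within replicates 1 and 2, and 0.13 without Hampshire replicate 2. The genes are neighbours on chromosome 2, FADS2 at 9633941 to 9666666 on the minus strand and FADS1 at 9735425 to 9747405 on the plus strand, 68758 bases apart. FADS2 overlaps the long noncoding genes LOC100739565 and LOC106509334 on the other strand, which reached at most 0.557 FPKM. The strand setting has not been stated, so reads of FADS2 and these genes cannot be told apart.

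DGAT2, which makes triglyceride, was at 1.47 and 4.80 FPKM (Hampshire) and 2.17 and 1.21 FPKM (Mali). Hampshire replicate 2 stood 2.21-fold above the next library, and Hampshire replicate 1 lay between the Mali libraries. The log2 difference was 0.52 with a standard error of 0.46 and a 95% interval from -0.57 to 1.60 (limma, adjusted p = 0.908). It was -0.36 within replicates 1 and 1.39 within replicates 2, and -0.10 without Hampshire replicate 2. DGAT2 lies on chromosome 9 (10032163 to 10066082, plus strand).

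**Figure D2:**
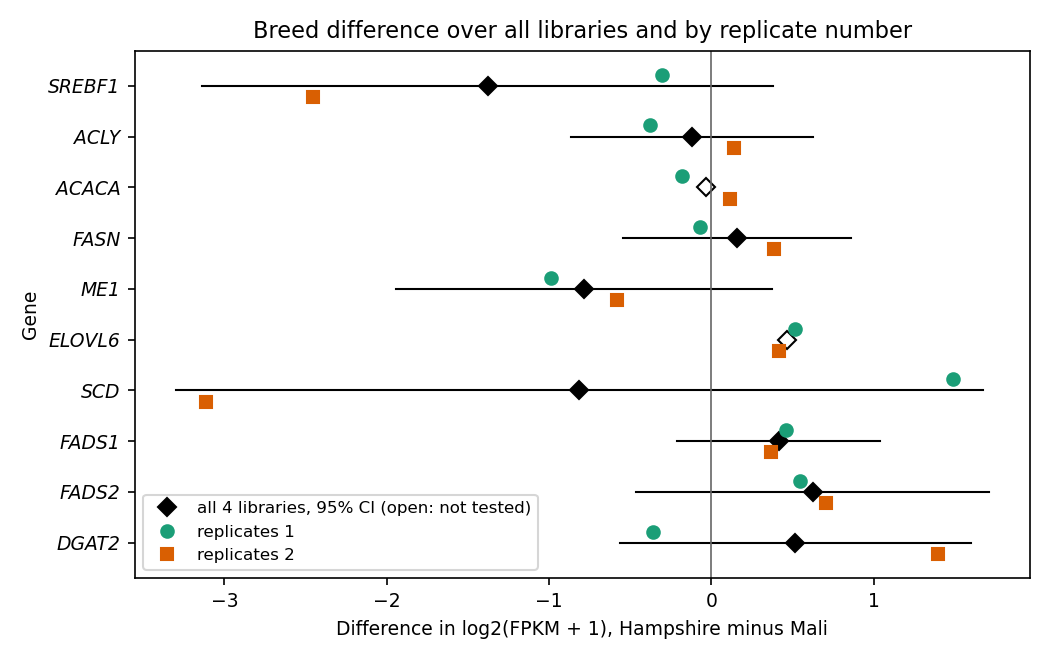
Difference in log2(FPKM + 1), Hampshire minus Mali, for each gene over all 4 libraries (diamonds, open where not tested, with 95% limma intervals where tested) and within replicates 1 (circles) and replicates 2 (squares). All 8 intervals include 0, and SCD runs from 1.49 in replicates 1 to -3.11 in replicates 2.

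The library in which FASN, ELOVL6, FADS2 and DGAT2 were highest, Hampshire replicate 2, was also the library richest in adipocyte transcripts. Adiponectin (ADIPOQ), a hormone made by adipocytes, was at 1.77 and 45.0 FPKM (Hampshire) and 2.31 and 7.84 FPKM (Mali). Perilipin 1 (PLIN1), the coat protein of adipocyte lipid droplets, was at 0.792 and 9.64 against 0.700 and 1.73 FPKM. PPARG, the transcription factor of adipocyte differentiation, was at 0.715 and 4.78 against 0.563 and 0.973 FPKM. Of the 13 adipocyte markers in the table, 9 were highest in Hampshire replicate 2. The defining markers ADIPOQ, PLIN1, CIDEC and LEP summed to 3.97 and 60.1 FPKM (Hampshire) and 4.12 and 11.5 FPKM (Mali), and of these LEP was listed at 0 in Mali replicate 1. The whole list summed to 605 and 1199 against 423 and 1586 FPKM. Without GPD1, which muscle also expresses at a high level, the sums were 80.8 and 355 against 141 and 94.2 FPKM. The part of adipocyte transcripts in the 4 genes was not tested, and in bulk tissue fewer cells of a type and less RNA per cell cannot be told apart.

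None of the 8 tested adipocyte markers passed adjustment, and PPARG and LEP were not tested. Of the 13 markers in the table, 2 were highest in Mali replicate 1 and 2 in Mali replicate 2. Hormone-sensitive lipase (LIPE), which releases stored fat, was at 1.59 and 4.05 FPKM (Hampshire) and 21.4 and 1.21 FPKM (Mali). FABP4, a fatty acid carrier, was at 70.1 and 273 against 108 and 71.3 FPKM, and CIDEC, a lipid droplet protein, at 1.36 and 4.92 against 1.11 and 1.73 FPKM. CIDEA, a related droplet protein, was at 2.81 and 5.38 against 1.51 and 1.37 FPKM without overlap, and the glycerol channel AQP7 at 1.003 and 3.56 against 4.47 and 6.74 FPKM without overlap on the Mali side. CIDEA and AQP7 had unadjusted p of 0.0249 and 0.0468 and adjusted p of 0.672 and 0.697 in limma.

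**Figure D3:**
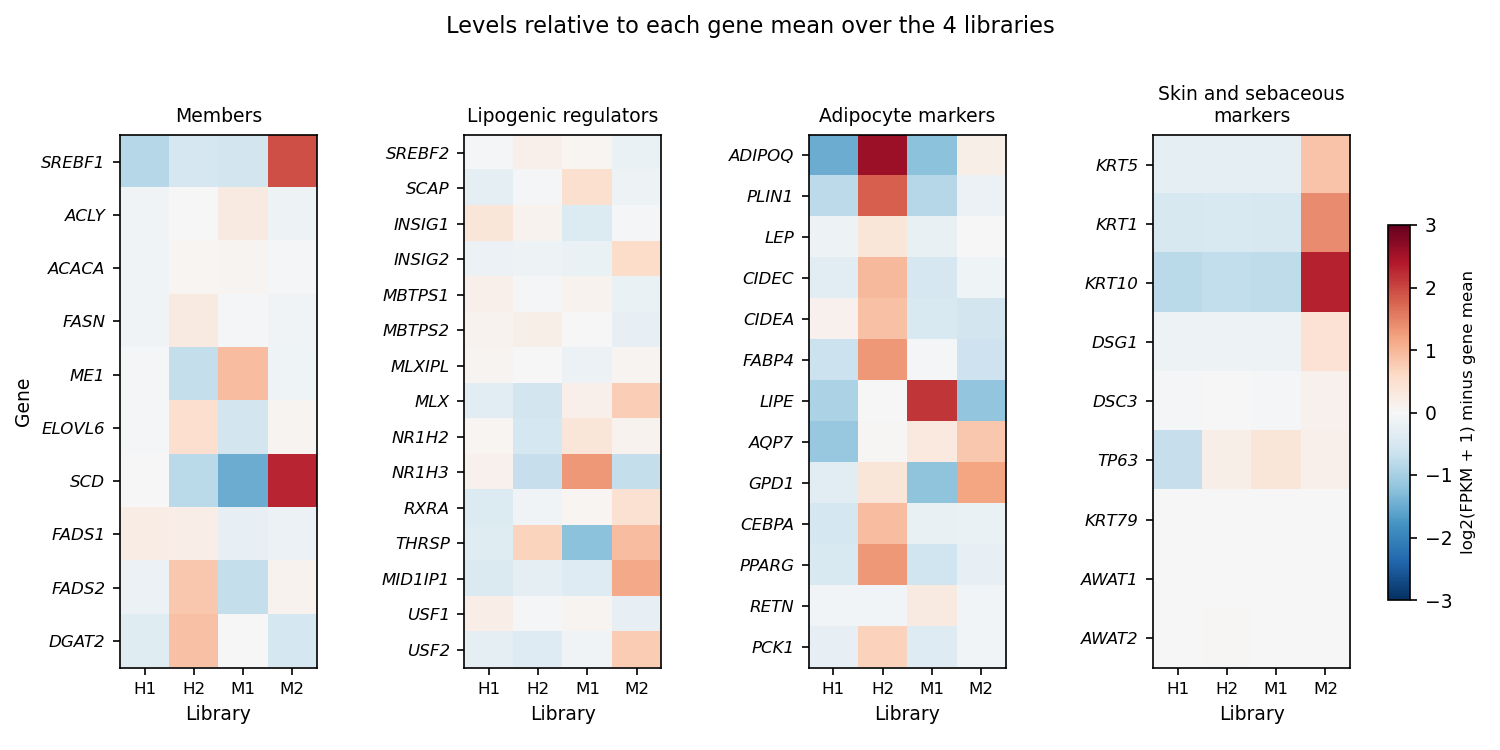
Level of each gene in log2(FPKM + 1) minus its mean over the 4 libraries (colour scale), for the 10 pathway genes, the lipogenic regulators, the adipocyte markers and the skin and sebaceous markers, in Hampshire (H1, H2) and Mali (M1, M2). Of the 13 adipocyte markers 9 are reddest in H2, while SREBF1, SCD and KRT10 are reddest in M2.

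Ratios between genes of the same library do not depend on how that library was scaled. The ratio of ACACA to FASN was 0.561 and 0.457 in Hampshire and 0.691 and 0.600 in Mali. The breeds did not overlap, and the ratio spanned only 1.51-fold. An exact permutation test of this ratio (two-sided) gave p = 0.33, the smallest value that 2 against 2 libraries allow. SCD to FASN was 2.16 and 0.520 in Hampshire and 0.182 and 13.9 in Mali, a span of 76.1-fold. The lowest and the highest value were both in Mali. SREBF1 stood at 1.17 and 1.33 times its paralog SREBF2, the regulator of sterol synthesis, in Hampshire and at 1.39 and 11.8 times in Mali. This ratio also did not overlap, with exact permutation p = 0.33.

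The remaining ratios overlapped between the breeds, with an exact permutation p of at least 0.667. FADS1 to FADS2 was 0.371 and 0.155 in Hampshire and 0.303 and 0.154 in Mali, so it was higher in both replicates 1 than in both replicates 2. DGAT2 to DGAT1, the other enzyme of this step, was 0.563 and 1.72 against 0.842 and 0.387. ACACA to ACACB, the carboxylase of oxidative muscle whose malonyl-CoA restrains fatty acid entry into mitochondria, was 0.172 and 0.126 against 0.0947 and 0.166. ACACB was thus the more abundant carboxylase per length in every library. ME1 to FASN was 8.93 and 3.35 against 17.0 and 8.37, ACLY to FASN 1.68 and 1.16 against 2.24 and 1.58, and ELOVL6 to FASN 0.688 and 0.879 against 0.195 and 0.822. FASN to PLIN1 was 1.42 and 0.186 against 1.76 and 0.654, and FASN to ADIPOQ 0.635 and 0.0398 against 0.532 and 0.145, so both were lowest in Hampshire replicate 2. SCD to PLIN1 was 3.07 and 0.0967 against 0.320 and 9.06, and DGAT2 to PLIN1 1.86 and 0.498 against 3.10 and 0.698.

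**Figure D4:**
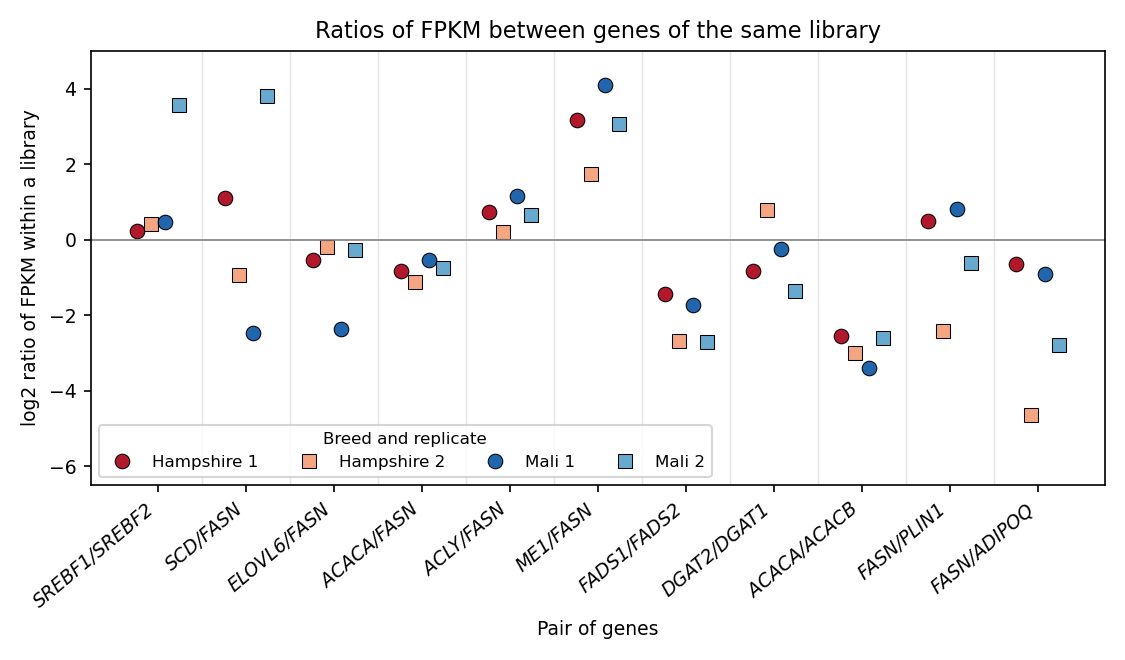
Ratio of FPKM between 2 genes of the same library, on a log2 axis, with 1 point per library. SCD/FASN runs from 0.182 in Mali 1 to 13.9 in Mali 2, whereas ACACA/FASN stays between 0.457 and 0.691.

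No gene of the wider pathway lists passed adjustment in limma either. Of 14 tested lipogenic regulators 6 lay on the Hampshire and 8 on the Mali side, with 0 at unadjusted p under 0.05 and a median log2 difference of -0.34. SREBF2 was at 3.11 and 3.68 FPKM (Hampshire) and 3.40 and 2.64 FPKM (Mali). INSIG1, which holds SREBP proteins in the endoplasmic reticulum and is itself an SREBP target, was at 3.14 and 2.43 against 1.41 and 2.12 FPKM without overlap (limma, adjusted p = 0.877). Of the 14 tested regulators 2 did not overlap on the Hampshire side and 4 on the Mali side. Among all tested genes these shares were 13.0% and 23.6%. Mali replicate 2 was the highest library for 7 of the 15 regulators, among them the untested MLXIPL, beside 33.3% of all tested genes. The 7 regulators stood between 1.01- and 2.82-fold above the next library there, against 6.39-fold for SREBF1. MID1IP1, an activator of acetyl-CoA carboxylase, was at 14.9 and 16.5 against 15.4 and 46.6 FPKM. MLX, the partner of the carbohydrate-response factor MLXIPL, was at 23.7 and 20.3 against 33.8 and 51.2 FPKM, without overlap on the Mali side. THRSP, a lipogenic protein related to MID1IP1, was at 0.826 and 2.71 FPKM in Hampshire and was listed at 0 and at 3.46 FPKM in Mali. MLXIPL itself was between 0.282 and 0.538 FPKM.

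The supply genes went both ways. Of 12 genes for citrate, acetyl-CoA and NADPH supply, all tested, 7 lay on the Hampshire and 5 on the Mali side, 0 had an unadjusted p under 0.05 and the median was 0.032. The pentose phosphate enzyme TKT was at 6.13 and 8.75 FPKM (Hampshire) and 3.68 and 4.83 FPKM (Mali), without overlap (limma, adjusted p = 0.826). SLC25A1, the mitochondrial citrate carrier, was at 2.31 and 4.99 against 3.03 and 8.56 FPKM. IDH1, a cytosolic source of NADPH, was at 4.49 and 5.84 against 2.84 and 5.08 FPKM.

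Among 15 tested genes of other carboxylation, elongation and desaturation steps, 8 lay on the Hampshire and 7 on the Mali side, with a median of 0.021 and 1 at unadjusted p under 0.05. That gene was HACD1, the muscle form of the dehydratase of very long chain elongation, at 58.1 and 59.99 FPKM (Hampshire) and 21.4 and 18.0 FPKM (Mali). The breeds were well apart in both replicate numbers, with a log2 difference of 1.54, a standard error of 0.43, an unadjusted p of 0.0081 and an adjusted p of 0.507 in limma. HACD2 was at 1.21 and 2.30 against 1.09 and 1.23 FPKM. ELOVL5, the elongase working between the delta-6 and delta-5 steps, was at 1.56 and 3.14 against 1.08 and 1.81 FPKM. Like FADS2, it was higher in Hampshire within each replicate number and overlapped between breeds. ACACB was at 3.67 and 6.52 against 8.98 and 4.10 FPKM.

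Of 19 tested triglyceride assembly genes 8 lay on the Hampshire and 11 on the Mali side, with a median of -0.069. AGPAT4, an acyltransferase, was at 1.01 and 1.20 against 0.351 and 0.337 FPKM, and was the 1 gene of the list at unadjusted p under 0.05 (0.0444, adjusted 0.697 in limma). Like FADS1, it passed the filter through the Hampshire libraries alone. GPAT3 was at 3.74 and 5.56 against 4.01 and 1.15 FPKM, ACSL5 at 2.45 and 3.08 against 1.93 and 1.63 FPKM, and DGAT1 at 2.61 and 2.79 against 2.58 and 3.13 FPKM. Of 15 tested sterol synthesis genes, which the paralog SREBF2 governs, 4 lay on the Hampshire and 11 on the Mali side, with a median of -0.24. TM7SF2 was at 1.71 and 2.62 against 2.83 and 8.64 FPKM, and FDFT1 at 66.2 and 52.5 against 103 and 69.7 FPKM, both without overlap on the Mali side.

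Fatty acid oxidation stood far above synthesis in level. The 18 oxidation genes summed to between 974 and 1578 FPKM per library, against 25.9 to 66.4 FPKM for the 10 synthesis genes. Of the 18, 5 lay on the Hampshire and 13 on the Mali side, with a median of -0.10 and 0 at unadjusted p under 0.05. Their highest values were mostly in replicates 1, with 8 in Hampshire replicate 1 and 7 in Mali replicate 1, and none in Hampshire replicate 2. Hampshire replicate 1 was also the library with the high share of mitochondrial transcripts, whose part in these values was not tested. DECR1 was at 60.5 and 41.9 against 26.0 and 40.9 FPKM, ECI1 at 148 and 60.4 against 55.0 and 77.5 FPKM, and HADHA at 74.4 and 72.2 against 97.9 and 97.2 FPKM.

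The genes whose values followed FASN most closely were ABCC9, TRAM1, FXYD5, TXNDC5 and ARAP1. Their Euclidean distance from FASN over the 4 libraries, in log2(FPKM + 1) centred on each gene, was between 0.029 and 0.046. FASN itself stood only 0.32 from a flat profile, so many genes lay near it. Of the pathway genes ACACA was nearest, at 0.26, with 380 of 9456 other named tested genes nearer. FADS1 followed at 0.40, with 1123 nearer, and SCD was farthest, at 3.01.

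Markers of other cell types differed between the libraries as well. Of the fibroblast markers 8 of 9 were highest in Hampshire replicate 2, and their summed level was 483 and 1449 FPKM in Hampshire and 115 and 349 FPKM in Mali. Between the breeds, 4 of the 9 did not overlap, all 4 higher in Hampshire, while 13.0% of all tested genes were separated in this direction. These 4 had unadjusted p under 0.05 in limma, and 0 of the 9 passed adjustment. With the replicate block 5 of the 9 passed it, against 2.59% of all tested genes. The labels do not give this pairing. The collagen COL3A1 was at 191 and 722 against 15.6 and 73.6 FPKM, with a log2 difference of 3.41, an adjusted p of 0.461 in limma and 0.00089 with the block. Of the macrophage markers 9 of 10 were highest in Hampshire replicate 2, with sums of 64.9 and 113 against 42.5 and 28.6 FPKM. Of the 8 tested, 6 did not overlap, again higher in Hampshire (13.0% of all tested genes). Of these 8, 0 passed adjustment and 1, LYZ, passed it with the block (2.59% of all tested genes). LYZ was at 4.96 and 4.14 against 0.416 and 0.593 FPKM. Like FADS1, it passed the filter through the Hampshire libraries alone, which fixed its separation beforehand. Red blood cell transcripts summed to 2584 and 3778 against 90.1 and 5522 FPKM, and the muscle markers to between 74088 and 164049 FPKM. Of 10 hepatocyte markers 5 were listed at 0 in all libraries, and ALB stayed at or below 0.326 FPKM. The part of these cells in the values of the pathway genes was not tested.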

How the data were processed

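RNA of 4 muscle biopsy libraries, 2 per breed, was prepared with Trizol and a TruSeq kit, per the labels' protocols. Per the submitters' processing notes, the tools named were HISAT2, Cuffdiff, Picard and Bowtie 0.12.2, whose roles are not stated. The genome build is not given in the labels, but all 10 pathway genes have the start and end of the Sscrofa11.1 RefSeq table. The authors deposited 1 table with FPKM per gene and library, and, per the file headers, the results of their own comparison (breed means, log2 fold change, score, p-value, q-value). By the deposited means, this fold change is Hampshire over Mali. Replicate numbers follow accession order.

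The 1 nameless row of 30213 was dropped, 26 symbols stored as dates were recovered by gene ID, and rows sharing a symbol were added up. Genes that reached 1 FPKM in 2 or more libraries entered limma 3.58.1 (R 4.3.3) on the log2(FPKM + 1) scale (mean-variance trend, two-sided, Benjamini-Hochberg over all tested genes, threshold 0.05). This scale understates the change of low genes. Whole reads could not be recovered, so no count test was run.

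The 10 genes, the lists and the ratios were chosen with earlier results of these data known. Named genes are all 10, up to 3 tested genes of each list by lowest unadjusted p, 15 fixed genes of the pathway and adipocytes, and the 5 nearest to FASN; others were chosen after their values were seen. Some genes that this rule names are not reported here. CYP51A1 was matched as CYP51. Alternatives were other pseudocounts, filters, scalings and limma settings, libraries left out and a replicate block. Sequence features were not analysed here. Figures were drawn with matplotlib 3.10.9.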

Additional observations from a re-analysis of the deposited data

How the results depend on the processing

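Under every alternative run, 0 of the pathway genes tested in it passed adjustment. The number tested was 2 in the run on genes averaging 5 FPKM or more, 10 with no filter on low values and 8 otherwise. The count over all genes, 0 as reported, was 1 among genes averaging 5 FPKM or more, 68 and 63 after rescaling to a common sum with and without mitochondrial genes, and 0 to 7 when 1 library was left out. With the replicate number as a block it was 261, and 57 with median-of-ratios size factors added. The labels do not pair the libraries; with the block the lowest adjusted p among the 8 pathway genes was 0.101, for SREBF1. Rescaling to a common sum moved the median of all genes from -0.12 to -0.40, and the share of genes at unadjusted p under 0.05 that lay on the Hampshire side from 60.5% to 23.2% (73.1% with size factors).

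The median of the 10 genes was -0.12 after that rescaling, -0.060 with quantile normalization and between -0.11 and 0.20 with 1 library left out. Genes without overlap numbered 3 and 4 of 10 after rescaling with and without mitochondrial genes (40.1% and 29.5% of all tested genes), 2 with quantile normalization (34.9%) and 4 to 7 with 1 library left out (62.2% to 72.4%), where fewer values can overlap. SREBF1 and ME1 stayed negative and ELOVL6, FADS1 and FADS2 positive in all 17 settings. The filters, the variance trend, the choice of row and the block cannot change the difference of these genes, so those settings repeat earlier values. The sign of FADS1 was also fixed beforehand by its passing the filter through the Hampshire libraries alone. FASN was -0.040 after rescaling to a common sum and -0.038 to 0.36 with 1 library left out. ACACA was 0.024 with size factors, with or without the block, and -0.11 to 0.045 with 1 library left out. With 1 library left out ACLY ran from -0.33 to 0.095, SCD from -2.70 to 1.07 and DGAT2 from -0.10 to 1.13. The breed difference of the log2 ratios changed sign for SCD to FASN (-3.71 to 2.54), ELOVL6 to FASN (-0.080 to 1.996), FADS1 to FADS2 (-0.48 to 0.78), ACACA to ACACB (-0.18 to 0.63), DGAT2 to DGAT1 (-0.021 to 1.59), FASN to ADIPOQ (-2.80 to 1.19), FASN to PLIN1 (-2.53 to 0.41), SCD to PLIN1 (-4.14 to 0.85) and DGAT2 to PLIN1 (-1.69 to 0.46). The cause of these moves was not tested. Leaving out 1 library leaves a lone library assumed to vary like the other breed.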

Other observations

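In Mali replicate 1 ME1, ACLY and ACACA were highest. So were 9 of the 21 triglyceride assembly genes but only 2 of the 13 adipocyte markers, beside 28.7% of all tested genes. The 2 markers were LIPE and RETN. RETN was at 0.291 FPKM there, listed at 0 elsewhere and not tested. The following 5 genes were picked for their high value in Mali replicate 1 after the values were seen. LIPE and ACSL4, which activates long-chain fatty acids, were among 15 tested genes (0.149%) at least 5-fold above every other library there. ACSL4 was at 10.2 and 9.93 FPKM (Hampshire) and 61.1 and 8.09 FPKM (Mali). PLIN2, the lipid droplet coat of muscle fibres and many other cells, was at 35.2 and 36.7 FPKM (Hampshire) and 80.4 and 21.1 FPKM (Mali). The phosphatidate phosphatase LPIN1 was at 11.2 and 12.7 FPKM (Hampshire) and 31.1 and 12.1 FPKM (Mali), and the sterol-sensing receptor NR1H3 at 11.8 and 6.21 FPKM (Hampshire) and 27.6 and 6.10 FPKM (Mali). The adipocyte-defining markers summed to 4.12 FPKM in that library, against 60.1 FPKM in Hampshire replicate 2. These values rest on 1 library, and the breeds overlapped for all 5 genes.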
